A study of Mus musculus with 23 samples.

Results

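The translation factors described here are the initiation, elongation and termination factors of mouse whose gene names begin with Eif1 to Eif6 or with Eef, or are Etf1 or begin with Gspt, in the table of RNA and ribosome-protected fragment levels. 52 of the 6397 genes of the table carry such a name. 10 of them were set aside (Eef1a1, Eef1b2, Eef1d, Eef1g, Eef2, Eif4b, Eif3e, Eif3f, Eif3h and Eif2ak2), which left 42. By role they fall into 6 genes of scanning and subunit joining (Eif1, Eif1b, Eif1a, Eif1ax, Eif5, Eif5b), 5 carriers of the initiator tRNA (Eif2s1, Eif2s2, Eif2s3x, Eif2a, Eif2d), 3 subunits of eIF2B, 2 eIF2 kinases, 9 subunits of eIF3, 8 genes of the cap-binding complex eIF4F and its helpers, Eif4a3, 2 eIF4E-binding proteins, Eif6, 3 elongation genes and 2 termination genes.

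In translation initiation, eIF2 brings the initiator tRNA to the small ribosomal subunit, eIF4F binds the cap of the mRNA, and eIF3 holds the assembly together while it scans for a start codon. eIF2B recharges eIF2 with GTP, and kinases that phosphorylate eIF2 block this step under stress. Elongation factors then move the ribosome along the coding sequence, and eRF1 and eRF3 release the finished protein at a stop codon.

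Bone-marrow-derived macrophages (BMDMs) of C57BL/6 mice, grown in medium with L929 supernatant, were compared at 0, 1, 2, 4 and 6 h of 100 ng/ml LPS, a component of bacterial outer membranes. Each of the 5 time points has 2 cultures, A and B. Both assays were run on all of them, which makes 10 libraries of RNA-seq and 10 of Ribo-seq. Ribo-seq counts ribosome-protected fragments (RPFs), and the translation efficiency (TE) of a gene is its RPF level over its RNA level in the same culture. The RNA bound by V5-tagged Zfp36 was mapped in 2 CLIP-seq libraries and 1 input after 4 h. The study calls A and B biological replicates, but the labels do not say whether they came from separate mice, so the p-values measure the spread between these cultures only.

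Levels are reads scaled by gene length and library depth (RPKM), which are relative to all other mRNAs of a library, and in bulk cultures fewer cells of a type and less RNA per cell cannot be told apart. All 12 macrophage markers examined averaged at least 10 RPKM in both assays, and none of the neutrophil, lymphocyte, dendritic or erythroid markers was in the table. Of 5 fibroblast markers 1 was, at 0.362 to 1.36 RPKM in RNA and 1.41 to 4.63 RPKM in RPFs. A marker missing from the table has no level to read, so its absence does not measure low expression. By the step between RPKM values that 1 read makes, the Ribo-seq libraries rest on 550000 to 3460000 reads (median 1835000). The shallowest is 6 h replicate A, where the 25 factors with a single RefSeq mRNA had a median of 30 reads and Eefsec had 5. The depth of the RNA-seq libraries is unknown. Over the factors tested, the SD of the log2 difference between replicates A and B was 0.16 to 0.23 in RNA at the 5 time points. In RPFs it was 0.33 at 0 h, 0.82 after 1 h, 0.58 after 2 h, 0.26 after 4 h and 0.42 after 6 h. RPF changes at 1 and 2 h are therefore the least precise. The fits below take 1 spread per gene over all 5 time points, so the standard error (SE) of a gene is the same at every time. It does not show this difference in precision. 9 of the 42 factors have at least 1 other stretch of the genome with 95% or more identity to 0.5 or more of their coding sequence (15 for Eif1, 3 each for Eif4a1 and Eif4a3). HTSeq was run with a minimum mapping quality of 10, and reads that an aligner places equally well in several spots usually score below that. How many were lost is not known here. Levels of Eif1, Eif2s1, Eif2s2, Eif2s3x, Eif3m, Eif4e, Eif4a1, Eif4a3 and Eif5a are therefore less certain.

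Changes were tested with limma on log2(RPKM + 1), which understates changes of low genes, for genes with a mean of at least 10 RPKM, with p-values adjusted over all genes tested by Benjamini-Hochberg. A gene with an adjusted p under 0.05 was called. 37 factors entered the RNA test (Eif2d, Eif2b4, Eefsec, Eif5b and Eif4enif1 were below the minimum) and 38 the RPF test (Eif5b entered). The median of all genes tested shifted downward with time, with log2 changes of -0.15, -0.22, -0.33 and -0.41 in RNA at 1, 2, 4 and 6 h, and in RPFs of -0.18, -0.32, -0.50 and -0.66. After each library was centred on its own median, the 6 h medians of all genes were -0.19 in RNA and -0.15 in RPFs. Calls that held under both scalings are therefore told apart from those that did not.

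By 6 h the RNA of most factors was lower, as was that of most genes, and a smaller group rose. At 1 h against 0 h, 2 factors rose (7.72% of all genes tested did) and 6 fell (9.12% did). At 2 h 6 rose, against a background of 15.7%, and 10 fell, against 37.7%. At 4 h 8 rose (24.3% of all genes) and 11 fell (51.7%). At 6 h 7 rose (26.1%) and 22 fell (54.9%), so that the share called in each direction at 6 h was near that of all genes. The median log2 change of the factors was -0.11, -0.06, -0.12 and -0.42 at 1, 2, 4 and 6 h. Over the 5 time points 28 of 37 factors passed the F-test, against 87.4% of all genes. The 7 that rose at 6 h, Eif1a, Eif4g2, Eif3c, Eif6, Gspt1, Eif4g3 and Etf1, rose under both scalings, and 15 of the 22 fell under both, led by Eif2ak3, Eif4a2, Eif1b, Eif3a and Eef1e1. The falls of Eif1ax, Eif2s1, Eif2s3x, Eif2a, Eif2b5, Eif4a1 and Eif5a were not called after median centring. With that scaling 3 factors were higher and 4 lower in RNA at 1 h, and 9 were higher and 15 lower at 6 h, with Eif2s2 and Eif4g1 added to the higher ones. The 1 h counts rested on single libraries: without 0 h replicate A or 1 h replicate B, 1 factor rose and 1 fell, and without 0 h replicate B 2 fell. Leaving out 1 h replicate A, or any 2 h or 6 h library, left 1 factor higher, and without a 2 h or 6 h library 3 fell. At 2 h, 6 fell when 0 h replicate B or 2 h replicate A was left out.

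In RPFs far fewer factors were called. None was called at 1 h, where 2.94% of all genes were higher and 0.322% lower, nor at 2 h, where 5.65% were higher and 4.85% lower. At an unadjusted p under 0.05 there were 3 factors at 1 h and 3 at 2 h, which is 7.9% of the factors at each time. Of all genes tested, 14.9% were under it at 1 h and 26.8% at 2 h. With median centring limma also called none of the factors at either time. At 4 h 1 factor rose, Eif3c (11.7% of all genes rose), and 2 fell, Eif2ak3 and Eif4e (23.5% fell). At 6 h none rose (12.8% of all genes did) and 12 fell (36%), and over the 5 time points 13 of 38 passed the F-test (48.1% of all genes). The median log2 change of the factors was -0.07, -0.15, -0.20 and -0.70 at 1, 2, 4 and 6 h. These counts depend on the scaling. After median centring 4 factors were higher in RPFs at 6 h (Eif3c, Eif4g2, Eif4g3 and Eif6) and 2 were lower (Eif2ak3 and Eif3g), and at 4 h 5 were higher (Eif2s2, Eif3c, Eif4g2, Eif6 and Gspt1) and 1 lower (Eif2ak3). They also depend on single libraries. When 1 library of a time point is left out, that time point no longer adds to the spread that the fit uses at every time. The 12 falls at 6 h became 4 when 0 h replicate A was left out and 7 when either 0 h or 6 h replicate B was. Eif3g alone was called whichever library was missing. Without 1 h replicate A or B, 3 factors were higher at 6 h, and without a 2 h library 1 was. After 4 h, no factor was higher without any single 0 h or 4 h library, and 4 were without either 1 h library. None was lower there without 0 h replicate A or 4 h replicate B, 1 was lower without 0 h replicate B or 4 h replicate A, and 4 were without either 1 h library. Without 1 h replicate A, 4 factors were lower at 1 h, and without either 1 h library 1 was higher at 2 h. The 13 of the F-test became 6 without a 0 h or a 4 h library, 2 when 6 h replicate A was left out and 4 when 6 h replicate B was.

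**Figure D1:**
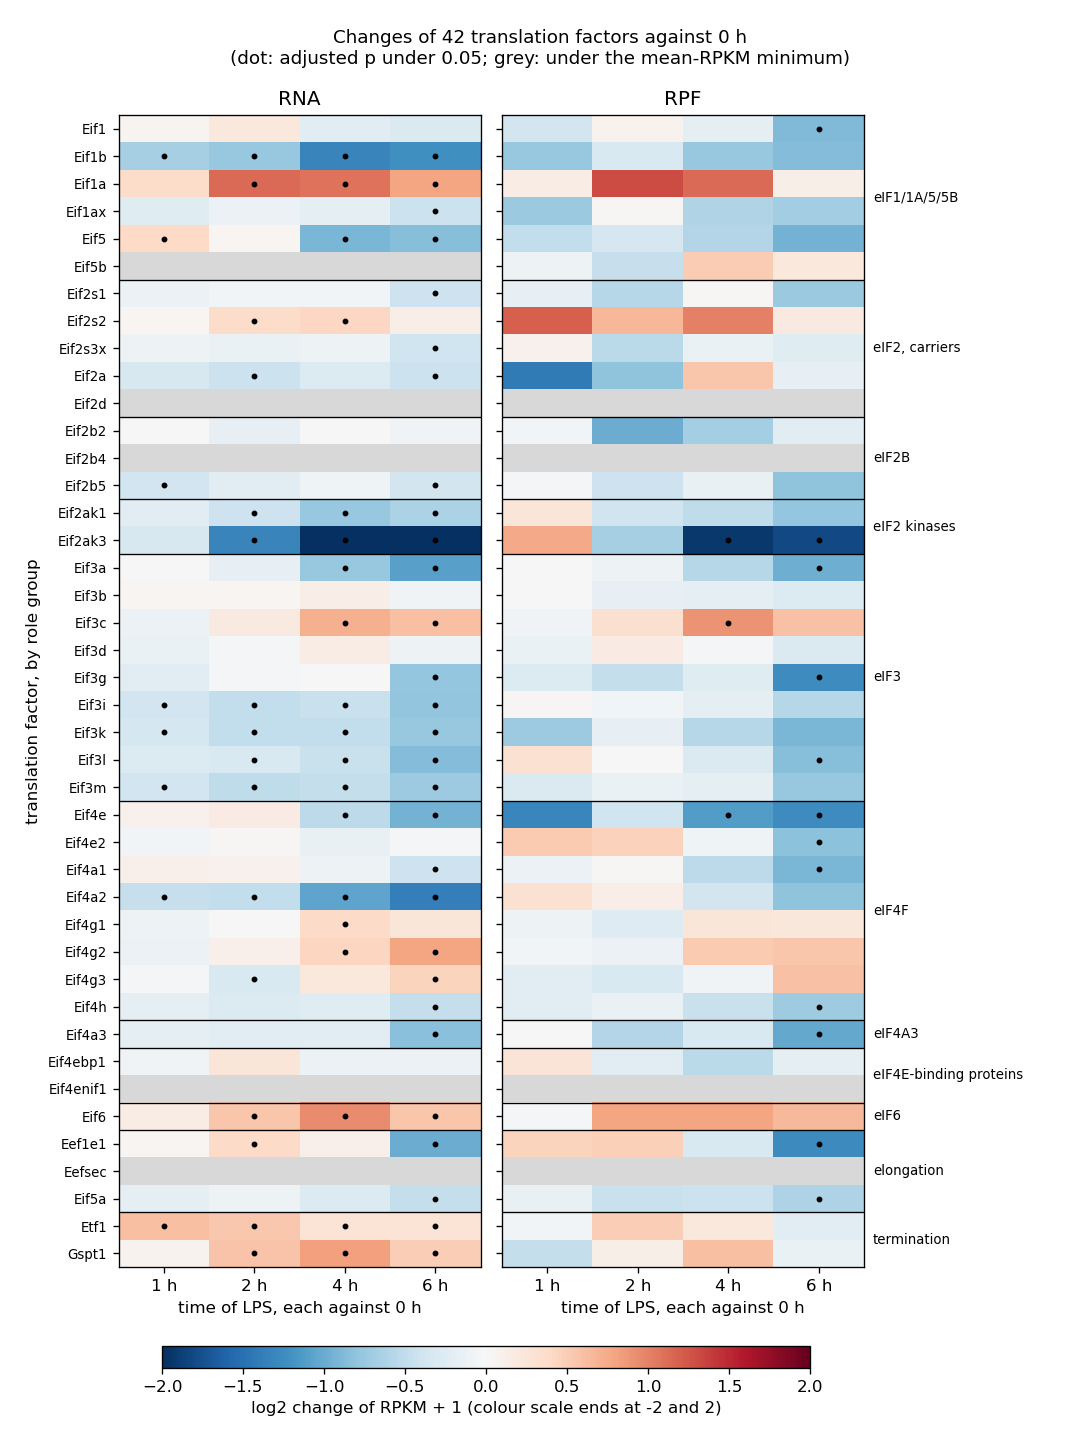
Log2 change of RNA (left panel) and RPFs (right panel) at 1, 2, 4 and 6 h against 0 h for the 42 translation factors, grouped by role, with dots at an adjusted p under 0.05 and grey cells for factors below the mean of 10 RPKM. Dots gather at 6 h, where 22 factors fell in RNA and 12 in RPFs. The RNA rows of Eif1a, Eif2s2, Eif3c, Eif4g1, Eif4g2, Eif6, Etf1 and Gspt1 are red with a dot at 4 h.

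Promoters are shown for 3 factors whose RNA changed under both scalings, Eif3c and Gspt1, which rose, and Eif2ak3, which fell. They were chosen after the changes were seen. Each runs from 250 bases before a RefSeq start of the gene to 50 bases after it on GRCm38.p6, 5' to 3' on the gene's strand. Eif2ak3 has 2 RefSeq mRNAs, and its window is not placed on the outermost start at position 70844484. Capitals mark matches on either strand to the CRE core TGACG, the ETS core CCGGAAG or the AP-1 motif TGANTCA. The Eif3c promoter lies at chr7:126566317-126566616 on the minus strand, that of Gspt1 at chr16:11254276-11254575 on the minus strand, and that of Eif2ak3 at chr6:70844265-70844564 on the plus strand.
Eif3c: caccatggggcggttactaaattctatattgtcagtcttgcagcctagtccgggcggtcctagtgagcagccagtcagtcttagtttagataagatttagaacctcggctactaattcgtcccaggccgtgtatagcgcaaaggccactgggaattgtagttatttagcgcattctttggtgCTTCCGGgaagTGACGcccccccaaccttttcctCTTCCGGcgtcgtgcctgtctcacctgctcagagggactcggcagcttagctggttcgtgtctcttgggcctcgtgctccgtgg
Gspt1: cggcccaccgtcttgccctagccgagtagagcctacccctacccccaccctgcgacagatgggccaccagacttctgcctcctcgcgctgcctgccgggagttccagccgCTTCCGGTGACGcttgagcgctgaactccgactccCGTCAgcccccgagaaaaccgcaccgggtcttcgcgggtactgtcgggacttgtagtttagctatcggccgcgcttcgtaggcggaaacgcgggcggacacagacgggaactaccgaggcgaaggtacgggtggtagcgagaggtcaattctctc
Eif2ak3: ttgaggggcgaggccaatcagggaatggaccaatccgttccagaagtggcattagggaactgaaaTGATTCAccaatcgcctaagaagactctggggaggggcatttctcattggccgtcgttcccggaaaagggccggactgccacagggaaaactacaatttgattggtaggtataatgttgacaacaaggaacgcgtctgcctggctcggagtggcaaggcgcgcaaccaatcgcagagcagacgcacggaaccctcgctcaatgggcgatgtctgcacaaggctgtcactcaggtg
Both rising factors shown have an ETS core and a CRE core close to each other, and the Eif2ak3 window holds an AP-1 match and neither core. The other factors that rose in RNA at 6 h were Eif1a, Eif4g2, Eif4g3, Eif6 and Etf1. None of them is among the factors found with an ETS core or a CRE core, though not every factor had a window. Over the 48 promoter windows of the 36 factors that matched the RefSeq table, 22 held the CRE core, against 20.8% of all 32851 windows of the same length, and 17 held the ETS core, against 8.86%. 10 held the E-box CACGTG (7.15% of all windows), 3 the AP-1 motif (7.81%), 3 the interferon-stimulated response element TTTCNNTTTC (3.44%) and 0 the NF-kB motif (8.46%). Factors with an ETS core include both rising genes (Eif3c, Gspt1) and falling ones (Eif1b, Eif2ak1, Eif3g, Eif3l, Eif3m), and those with a CRE core likewise include Eif3c and Gspt1 beside Eif3a, Eif4a2 and Eif4e. The 22 windows with a CRE core came from 17 factors, and the 17 with an ETS core from 14. The windows of all genes were not matched to the factors for expression or base content, and the differences were not tested. A match is a string of letters and not a measured site.

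Within eIF3, the scaffold that links the small subunit to eIF4F, Eif3c rose in RNA and 6 other subunits fell by 6 h. Eif3c, a core subunit, had 41.99 and 45.2 RPKM at 0 h, 39.95 and 39.9 after 1 h, 48.6 and 49.8 after 2 h, 65.9 and 78.1 after 4 h and 64.2 and 69.5 after 6 h in RNA. The libraries at 4 and 6 h lay above all those at 0 and 1 h. The RNA change was 0.71 ± 0.11 (SE, adjusted p = 3.82e-05) at 4 h and 0.61 ± 0.11 (SE, adjusted p = 0.000139) at 6 h. In RPFs Eif3c had 86.3 and 75.2 RPKM at 0 h, 98.4 and 59.2 after 1 h, 83.4 and 121 after 2 h, 148 and 156 after 4 h and 125 and 119 after 6 h. Both 4 h and both 6 h libraries were above both 0 h libraries, and the RPF change was 0.90 ± 0.28 (SE, adjusted p = 0.0321) at 4 h and 0.59 ± 0.28 (SE, adjusted p = 0.106) at 6 h, where it was called only after median centring (1.11, adjusted p = 0.00765). The 4 h call in RPFs was lost without any single library of 0 h or 4 h.

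Eif3a, the largest subunit and a partner of Eif3c in the core, moved the other way. In RNA it had 46.8 and 53.2 RPKM at 0 h, 52.2 and 47.6 after 1 h, 42.7 and 46.4 after 2 h, 25.9 and 32.4 after 4 h and 21.3 and 24.7 after 6 h, so that no library at 4 or 6 h reached the lowest at 0 h. Its change was -1.08 ± 0.13 (SE, adjusted p = 1.24e-06) in RNA and -0.98 ± 0.25 (SE, adjusted p = 0.01) in RPFs at 6 h, with 44.7 and 43.2 RPKM at 6 h, against 93.3 and 82.1 RPKM at 0 h. The fall in RPFs was not called without 0 h replicate A or after median centring (-0.46, adjusted p = 0.181). Eif3i and Eif3g belong to the module around Eif3b. Eif3g was not called in RNA up to 4 h and then fell, with 49.5 and 44.1 RPKM at 0 h, 41.1 and 38.6 after 1 h, 46.4 and 45.1 after 2 h, 42.9 and 50.3 after 4 h and 27.8 and 26.02 after 6 h, a change of -0.78 ± 0.11 (SE, adjusted p = 1.37e-05) at 6 h. Its RPFs were 43.9 and 45.8 RPKM at 6 h, against 108 and 108 RPKM at 0 h, without overlap, and this change of -1.25 ± 0.24 (SE, adjusted p = 0.00201) held under both scalings and without any single library. Eif3i fell in RNA at all 4 times, with a log2 change of -0.38 at 1 h and -0.79 at 6 h. Its 1 h call held in 8 of the 10 fits that left out a library.

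Eif3k, the subunit with the most RNA per kilobase, had 158 and 155 RPKM at 0 h, 125 and 118 after 1 h, 108 and 113 after 2 h, 102 and 122 after 4 h and 94.3 and 89.8 after 6 h in RNA. Every library after 0 h was below both 0 h libraries, with a change of -0.36 ± 0.11 (SE, adjusted p = 0.0438) at 1 h and -0.76 ± 0.11 (SE, adjusted p = 1.62e-05) at 6 h. The 1 h calls of Eif3k and Eif3m held in 2 and 3 of the 10 fits that left out a library. That of Eif3m was also lost after median centring. Eif3m, another subunit of the core, had 51.2 and 51.8 RPKM at 0 h, 43.5 and 35.5 after 1 h, 35.8 and 35.9 after 2 h, 37.2 and 36.6 after 4 h and 32.8 and 28.6 after 6 h, and its 2 h change was -0.51 ± 0.12 (SE, adjusted p = 0.00242). Eif3l, the partner of Eif3k, fell in RNA (-0.87) and in RPFs (-0.86) at 6 h, the RPF call being lost after centring and without 6 h replicate A. Eif3b, a core of the module with Eif3g and Eif3i, was not called at any time in either assay, with an RNA change of -0.08 at 6 h (0.14 after centring). Eif3d, which can bind the cap of some mRNAs, was not called either (-0.09 at 6 h, and 0.13 after centring), except after median centring in RNA at 4 h (0.25). Of the 9 subunits, 1 rose and 6 fell in RNA at 6 h, when 26.1% of all genes rose and 54.9% fell, so the count alone does not set eIF3 apart. The ratio of Eif3c to the median of the other 8 subunits was 1.64 and 1.89 at 6 h, against 0.833 and 0.861 at 0 h, in RNA, and 1.74 and 1.58, against 0.798 and 0.722, in RPFs. This ratio does not depend on the scaling of a library. It was formed after the values were seen and was not tested.

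**Figure D2:**
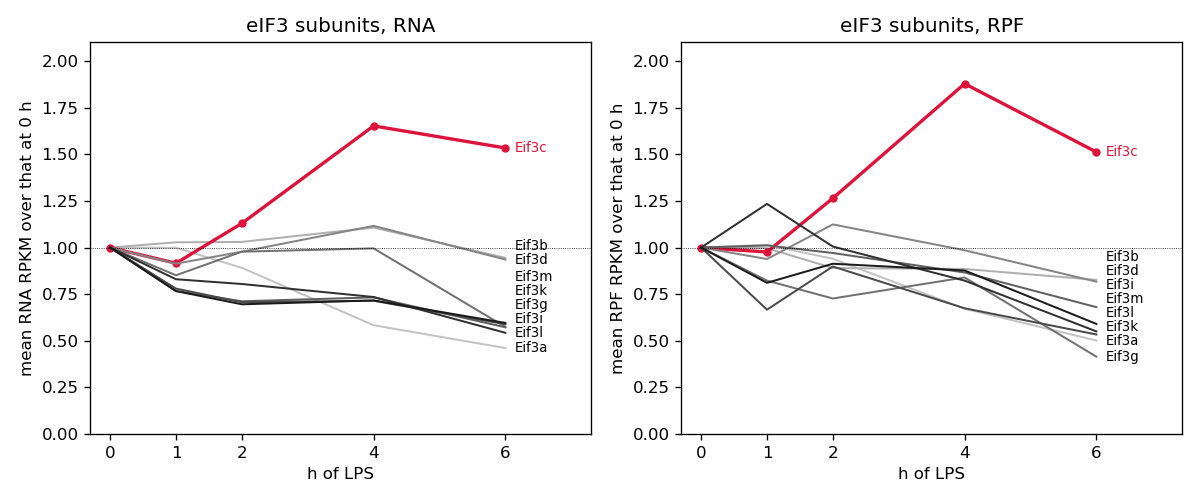
Mean RNA (left) and RPF (right) RPKM of the 9 eIF3 subunits over that at 0 h, by hours of LPS, with 2 libraries per point and subunit names stacked in the order of the 6 h values. Eif3c (red) is the only line above the dotted line of no change at 6 h in either panel.

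In the group that places the small subunit on the start codon, the RNA ratios of both paralog pairs were higher at 6 h, and none of these ratios was tested. Eif1a, a form of eIF1A that keeps the scanning ribosome open, rose, with 34.5 and 40.3 RPKM at 0 h, 51.96 and 45.1 after 1 h, 88.8 and 78.1 after 2 h, 82.7 and 78.8 after 4 h and 69.99 and 60.4 after 6 h in RNA. All libraries from 1 h on were above both 0 h libraries, and the change was 1.14 ± 0.13 (SE, adjusted p = 1.89e-06) at 2 h and 0.79 ± 0.13 (SE, adjusted p = 2.91e-05) at 6 h. Its X-linked paralog Eif1ax, the member of this group with the most RNA, had 70.996 and 83.8 RPKM at 0 h, 62.8 and 67.3 after 1 h, 66.8 and 75.4 after 2 h, 60.02 and 77.5 after 4 h and 55.5 and 58.1 after 6 h. Its 6 h libraries were below its 0 h ones, with a change of -0.43 ± 0.13 (SE, adjusted p = 0.00709) that was not called after median centring or without 0 h replicate B. Eif1a over Eif1ax was 1.26 and 1.04 at 6 h, against 0.486 and 0.481 at 0 h, in RNA, and 0.524 and 0.459, against 0.231 and 0.339, in RPFs. The RPF level of Eif1a itself scattered, with 41.2 and 62.7 RPKM at 0 h, 101 and 31.2 after 1 h, 94.6 and 170.4 after 2 h, 104 and 122 after 4 h and 71.5 and 42.4 after 6 h, and was not called at any time.

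Eif1, which guards the choice of the start codon, had 74.9 and 46.8 RPKM at 0 h, 66.6 and 56.8 after 1 h, 76.5 and 62.3 after 2 h, 49.1 and 52.2 after 4 h and 45.8 and 51.4 after 6 h in RNA, and replicates A and B at 0 h were further apart than for any other factor tested at that time. Its RNA change at 6 h was -0.28 ± 0.17 (SE, adjusted p = 0.145). It became 0.05 when 0 h replicate A was left out, against -0.62 when 0 h replicate B was, and each of these fits leaves 1 culture at 0 h. Its RPFs were 151 and 179.7 RPKM at 6 h, against 316 and 293 RPKM at 0 h, without overlap, a change of -0.88 ± 0.23 (SE, adjusted p = 0.0109) that was not called after centring or without replicate A of 0 h or of 6 h. Eif1b, its close paralog, fell from 1 h on, with 56.4 and 45.4 RPKM at 0 h, 31.9 and 31.3 after 1 h, 32.02 and 27.2 after 2 h, 16.6 and 23.4 after 4 h and 20.9 and 21.3 after 6 h in RNA. No library after 0 h reached either 0 h library, and the change was -0.66 ± 0.15 (SE, adjusted p = 0.00582) at 1 h, -0.76 ± 0.15 (SE, adjusted p = 0.000717) after 2 h and -1.22 ± 0.15 (SE, adjusted p = 1.68e-06) after 6 h. The 1 h call was lost without 0 h replicate A. In RNA Eif1 over Eif1b was 2.19 and 2.41 at 6 h, against 1.33 and 1.03 at 0 h. In RPFs it was 4 and 3.61, against 3.04 and 4.77, so that the RPF ratios at 6 h lay within those at 0 h.

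Eif5, which triggers GTP hydrolysis on eIF2 at the start codon, first rose and then fell. Its RNA was 52.8 and 61.8 RPKM at 0 h, 77.1 and 74.03 after 1 h, 60.9 and 56.4 after 2 h, 27.1 and 32.9 after 4 h and 29.1 and 33.7 after 6 h. The 1 h libraries were above and the 4 and 6 h libraries below those at 0 h, with changes of 0.40 ± 0.13 (SE, adjusted p = 0.043) at 1 h and -0.85 ± 0.13 (SE, adjusted p = 1.46e-05) at 6 h. The rise at 1 h held in 3 of the 10 fits that left out a library. The RPFs of Eif5 were not called, with 47.9 and 18.8 RPKM at 1 h, against 53.3 and 34.6 RPKM at 0 h. Eif5b, which joins the large subunit, had a mean RNA level under 10 RPKM, and its RPFs changed by 0.21 ± 0.39 (SE, adjusted p = 0.667) at 6 h.

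In RNA the 3 subunits of eIF2 moved by less than 0.5 on the log2 scale at every time. Eif2s1, the alpha subunit that the eIF2 kinases phosphorylate and the carrier with the most RNA, had 67.7 and 67.99 RPKM at 0 h, 69.4 and 56.5 after 1 h, 67.1 and 63.4 after 2 h, 61.7 and 68.4 after 4 h and 53.2 and 47.9 after 6 h. Its 6 h libraries were the lowest, with a change of -0.42 ± 0.12 (SE, adjusted p = 0.00466) that was not called after median centring or without 6 h replicate B. Eif2s2, the beta subunit, was called higher in RNA at 2 h (0.37) and 4 h (0.41) under both scalings, in 5 and 8 of the 10 fits that left out a library, and Eif2s3x, the gamma subunit, changed by -0.40 at 6 h. Of the other carriers, Eif2a had RPFs of 38.9 and 33.5 RPKM at 0 h, 34.7 and 4.39 after 1 h, 18.1 and 22.5 after 2 h, 50.3 and 57.3 after 4 h and 36.7 and 28.1 after 6 h, and 1 h replicate B, which rests on 13 reads, stood far below replicate A. Its RNA was lower at 2 h (-0.43), a call lost without 0 h replicate B or 2 h replicate A. Eif2d was under the minimum in both assays, with 5.29 and 6.53 RPKM at 6 h, against 13.1 and 13.4 RPKM at 0 h in RNA.

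Of the eIF2B subunits, Eif2b5, the catalytic one and the highest in RNA, had 21.8 and 24.5 RPKM at 0 h, 18.2 and 16.7 after 1 h, 18.9 and 20.9 after 2 h, 19.8 and 23.6 after 4 h and 17.9 and 17.6 after 6 h. Its RNA was lower at 1 h (-0.38 ± 0.12, SE, adjusted p = 0.0384) and at 6 h (-0.36 ± 0.12, SE, adjusted p = 0.0113), but the 1 h call held in 2 of the 10 fits that left out a library and the 6 h call was lost after centring and without 0 h or 6 h replicate B. Eif2b2 was not called at any time in either assay, with a 6 h RNA change of -0.07 that became 0.15 after centring. Eif2b4 stayed under the minimum, with 3.80 and 4.21 RPKM at 6 h, against 7.24 and 7.54 RPKM at 0 h in RNA.

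The largest change of any factor was that of Eif2ak3, the kinase PERK, which phosphorylates eIF2 when unfolded proteins build up in the endoplasmic reticulum. Its RNA was 81.6 and 79.3 RPKM at 0 h, 71.8 and 57.1 after 1 h, 31.2 and 32.2 after 2 h, 10.3 and 11.3 after 4 h and 9.90 and 10.1 after 6 h. From 2 h on all libraries were far below those at 0 h, with a change of -1.32 ± 0.12 (SE, adjusted p = 1.78e-07) at 2 h and -2.89 ± 0.12 (SE, adjusted p = 3.34e-12) at 6 h, which was called under both scalings and whichever library was left out. Its RPFs were 49.5 and 45.4 RPKM at 0 h, 66.2 and 98.03 after 1 h, 18.2 and 47.5 after 2 h, 13.9 and 9.94 after 4 h and 16.001 and 10.3 after 6 h. They were above the 0 h values at 1 h without a call and below them at 4 h (-1.92 ± 0.46, SE, adjusted p = 0.00992) and 6 h (-1.81 ± 0.46, SE, adjusted p = 0.00963). The RPF calls at 4 h were lost without 0 h replicate A or 4 h replicate B, and those at 6 h without 0 h replicate A or 6 h replicate B. Eif2ak1, the heme-regulated kinase, fell in RNA at 2, 4 and 6 h, with a change of -0.64 at 6 h and 13.97 and 15.5 RPKM at 6 h, against 24.9 and 22.1 RPKM at 0 h. Both fell in RNA under both scalings. Eif2ak2, the interferon-induced kinase PKR, which is among the genes set aside, went the other way, with 95.5 and 105.5 RPKM in RNA at 6 h, against 19.1 and 22.1 RPKM at 0 h, a change of 2.23 ± 0.12 (SE, adjusted p = 9.16e-11), and of 2.25 ± 0.31 (SE, adjusted p = 0.000312) in RPFs.

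**Figure D3:**
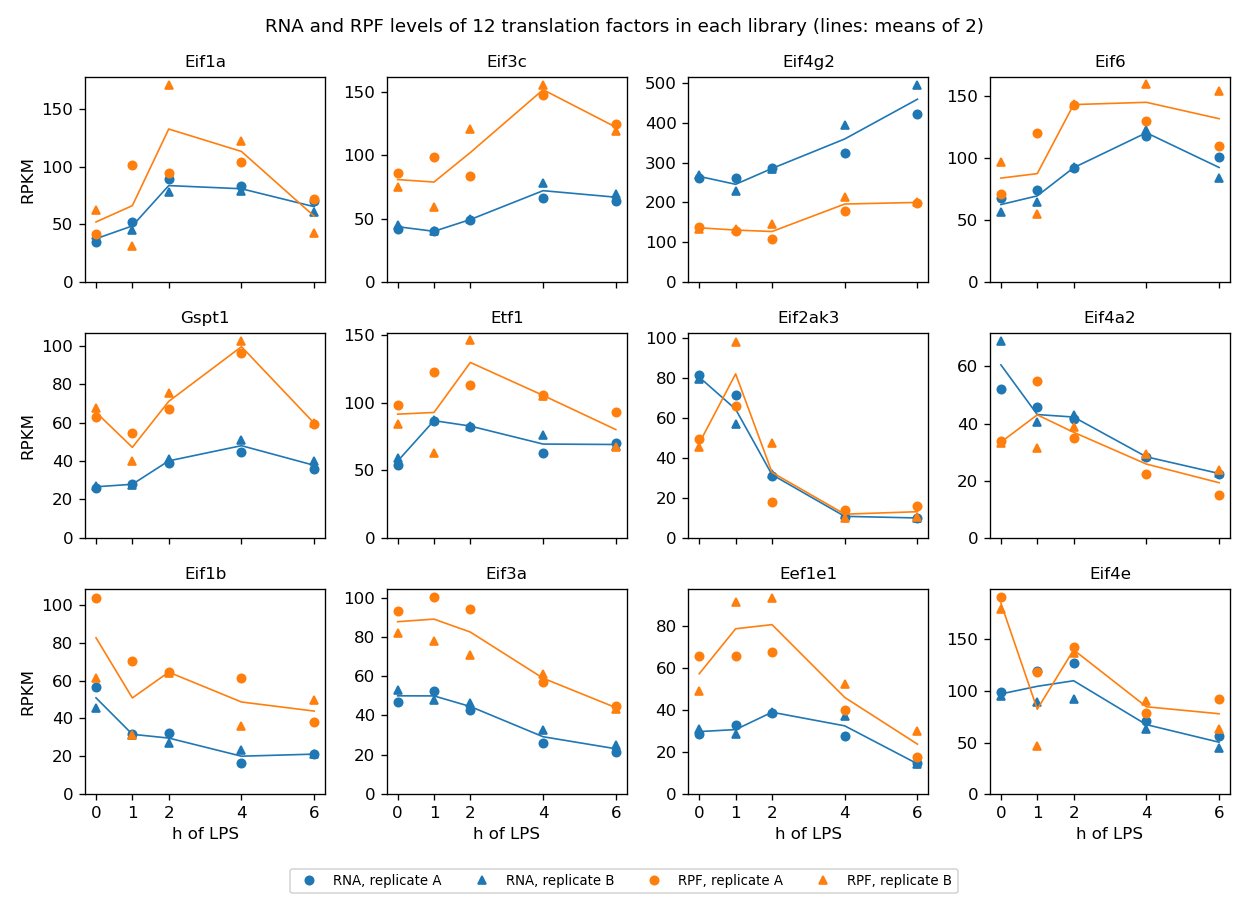
RNA (blue) and RPF (orange) RPKM of 12 translation factors in each library by hours of LPS (circles, replicate A, triangles, replicate B, lines, means of 2), with axes that start at 0. Eif2ak3 RNA drops to 9.90 and 10.1 RPKM at 6 h, while both Eif4g2 and Eif3c lie above their 0 h levels at 4 and 6 h in RNA and RPFs.

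In eIF4F and its helpers 2 genes rose in RNA at 6 h, the scaffolds Eif4g2 and Eif4g3, and 4 fell, Eif4e, Eif4a1, Eif4a2 and Eif4h. The remaining pair, Eif4g1 and Eif4e2, was not called. Of all genes tested, 26.1% rose and 54.9% fell in RNA at 6 h, so the count for these 8 genes alone does not set the group apart. Eif4g2, a scaffold that lacks the site for eIF4E and works without the cap, had the highest RNA level of all 42 factors averaged over the 10 libraries, with 261 and 270.3 RPKM at 0 h, 262 and 229 after 1 h, 286 and 285 after 2 h, 325 and 394 after 4 h and 424 and 496 after 6 h. Its 4 and 6 h libraries were above all others, with a change of 0.79 ± 0.13 (SE, adjusted p = 4.26e-05). Its RPFs were 199 and 201 RPKM at 6 h, against 139 and 134 RPKM at 0 h, again without overlap, a change of 0.55 ± 0.21 (SE, adjusted p = 0.0504) that was called only after centring (1.07, adjusted p = 0.00159). Eif4g1, the main scaffold, had 43.3 and 47.7 RPKM at 0 h, 41.7 and 43.2 after 1 h, 44.2 and 47.3 after 2 h, 56.5 and 62.9 after 4 h and 51.2 and 57.3 after 6 h in RNA and was higher at 4 h (0.39 ± 0.11, SE, adjusted p = 0.00584), a call that was lost without 0 h replicate A. At 6 h its change was 0.25 ± 0.11 (SE, adjusted p = 0.0525), and after centring it was called (0.47, adjusted p = 0.000755). Eif4g3, a lower-level scaffold, had 9.86 and 10.9 RPKM at 0 h, 9.88 and 10.4 after 1 h, 8.27 and 8.17 after 2 h, 11.7 and 12.6 after 4 h and 13.5 and 15.6 after 6 h. It dipped at 2 h (-0.30, not called after centring) and was highest at 6 h, with a change of 0.45 ± 0.12 (SE, adjusted p = 0.00227). Eif4g1 over Eif4g3 was 3.79 and 3.68 at 6 h, against 4.39 and 4.37 at 0 h, in RNA, and 3.002 and 3.46, against 4.38 and 4.15, in RPFs.

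Eif4e, the cap-binding subunit, had 99.1 and 95.2 RPKM at 0 h, 119.5 and 89.6 after 1 h, 127 and 92.7 after 2 h, 71.2 and 63.5 after 4 h and 56.3 and 44.3 after 6 h in RNA. The 4 and 6 h libraries were below all earlier ones, with a change of -0.95 ± 0.17 (SE, adjusted p = 7.38e-05). In RPFs it had 191 and 179 RPKM at 0 h, 119 and 46.2 after 1 h, 143 and 137 after 2 h, 78.8 and 90.6 after 4 h and 92.5 and 63.4 after 6 h, so that every later library was below both 0 h libraries. The RPF change was -1.12 ± 0.38 (SE, adjusted p = 0.0432) at 4 h, a call that held in 4 of the 10 fits that left out a library and not after centring, and -1.26 ± 0.38 (SE, adjusted p = 0.0204) at 6 h. The 6 h call was lost after centring (-0.75, adjusted p = 0.139) and without either 0 h library or 6 h replicate B. The related Eif4e2, a cap-binding protein that represses translation, was not called in RNA, with 53.2 and 62.2 RPKM at 0 h, 54.3 and 55.9 after 1 h, 56.7 and 60.7 after 2 h, 47.2 and 56.9 after 4 h and 54.2 and 57.96 after 6 h and a change of -0.04 ± 0.12 (SE, adjusted p = 0.787). Its RPFs were 36.2 and 29.9 RPKM at 6 h, against 60.6 and 56.9 RPKM at 0 h, a change of -0.82 ± 0.27 (SE, adjusted p = 0.0302) that was called in 4 of the 10 fits that left out a library and not after centring. Eif4e over Eif4e2 was 1.04 and 0.765 at 6 h, against 1.86 and 1.53 at 0 h, in RNA, and 2.56 and 2.12, against 3.15 and 3.15, in RPFs.

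Of the helicases that unwind the leader of the mRNA, Eif4a1 had 225 and 205 RPKM at 0 h, 274 and 192 after 1 h, 252 and 207 after 2 h, 207 and 192 after 4 h and 181 and 143 after 6 h in RNA. The 6 h libraries were the lowest, and the change of -0.41 ± 0.16 (SE, adjusted p = 0.0299) was lost after centring and without 0 h replicate A or 6 h replicate B. Its RPFs were 158 and 188 RPKM at 6 h, against 368 and 286 RPKM at 0 h, a change of -0.91 ± 0.22 (SE, adjusted p = 0.00754) that was also lost after centring and without 0 h or 6 h replicate A. Eif4a2, its paralog, fell further in RNA, with 52.2 and 68.9 RPKM at 0 h, 45.8 and 40.5 after 1 h, 41.6 and 42.97 after 2 h, 28.2 and 28.6 after 4 h and 22.4 and 22.7 after 6 h. All later libraries were below both 0 h libraries, with a change of -0.47 ± 0.13 (SE, adjusted p = 0.0201) at 1 h, which was not called after centring or without replicate B of 0 h or of 1 h, and -1.37 ± 0.13 (SE, adjusted p = 6.64e-08) at 6 h. Its RPFs were 14.9 and 23.7 RPKM at 6 h, against 33.8 and 33.2 RPKM at 0 h and were not called. Eif4a1 over Eif4a2 was 8.11 and 6.31 at 6 h, against 4.31 and 2.98 at 0 h, in RNA, and 10.6 and 7.93, against 10.9 and 8.60, in RPFs, so that the RPF ratios of both times overlapped. Eif4h, a helper of the helicase, fell in RNA (-0.48) and RPFs (-0.70) at 6 h, and the RPF call was lost after centring and without any single library of 0 h or 6 h.

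**Figure D4:**
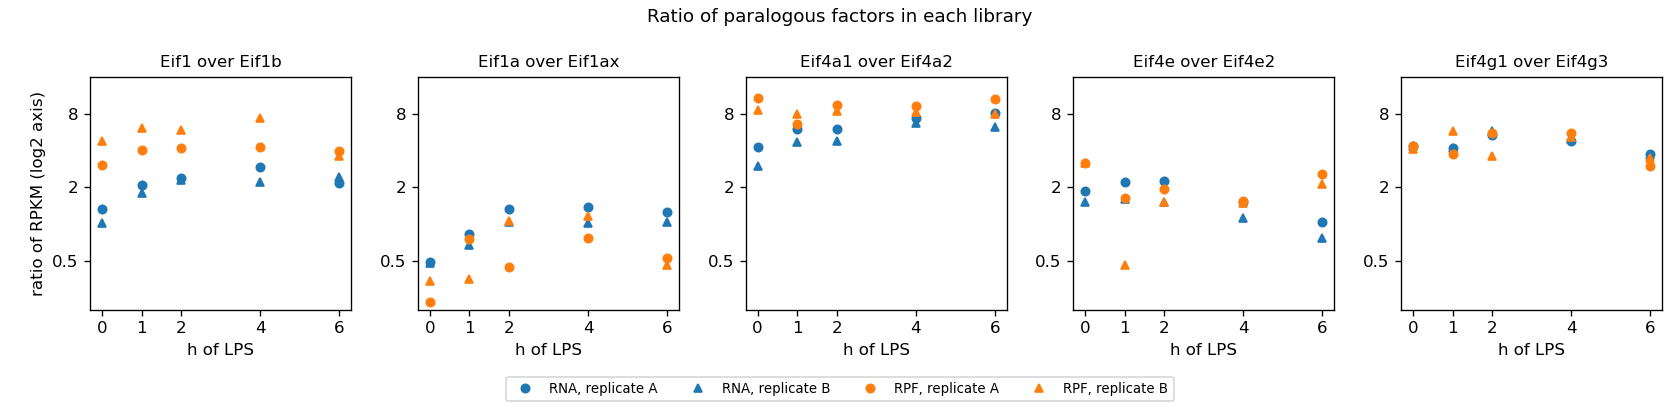
Ratio of RPKM of 5 pairs of paralogous factors in each library by hours of LPS, on a log2 axis, in RNA (blue) and RPFs (orange). The RNA ratios of Eif1 to Eif1b, Eif1a to Eif1ax and Eif4a1 to Eif4a2 are higher in both 6 h libraries than in both 0 h libraries. Those of Eif4e to Eif4e2 and Eif4g1 to Eif4g3 are lower.

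Eif4a3, a helicase of the exon junction complex, was not called in RNA up to 4 h and then fell, with 58.9 and 54.6 RPKM at 0 h, 54.3 and 46.4 after 1 h, 48.9 and 48.1 after 2 h, 47.4 and 50.7 after 4 h and 32.6 and 30.3 after 6 h. The change at 6 h was -0.83 ± 0.11 (SE, adjusted p = 5.29e-06) in RNA and -1.02 ± 0.26 (SE, adjusted p = 0.00868) in RPFs, where it had 43.04 and 34.7 RPKM at 6 h, against 74.1 and 85.3 RPKM at 0 h. The RPF call was lost after centring and without 0 h or 6 h replicate B. Eif4ebp1, the repressor that sequesters Eif4e, had 58.98 and 44.5 RPKM at 0 h, 49.7 and 47.6 after 1 h, 54.1 and 67.7 after 2 h, 38.5 and 57.7 after 4 h and 47.2 and 46.7 after 6 h in RNA. Its libraries at 6 h lay between those at 0 h, and its change of -0.12 ± 0.17 (SE, adjusted p = 0.513) turned sign after centring and without 0 h replicate A.

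Eif6, which keeps the large subunit from joining the small one too early, had 68.1 and 56.7 RPKM at 0 h, 74.1 and 64.7 after 1 h, 91.8 and 92.4 after 2 h, 118 and 123 after 4 h and 101 and 83.9 after 6 h in RNA. All libraries from 2 h on were above both 0 h libraries, with a change of 0.56 ± 0.13 (SE, adjusted p = 0.00204) after 2 h, 0.94 after 4 h and 0.56 ± 0.13 (SE, adjusted p = 0.00079) at 6 h. Its RPFs were 109 and 154 RPKM at 6 h, against 71.04 and 96.4 RPKM at 0 h, a change of 0.64 ± 0.35 (SE, adjusted p = 0.155) that was called only after centring (1.16, adjusted p = 0.0259).

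Both termination factors rose in RNA. Etf1, the release factor eRF1 that reads stop codons, had 54.2 and 59.6 RPKM at 0 h, 86.5 and 87.2 after 1 h, 82.5 and 83.2 after 2 h, 63.1 and 75.98 after 4 h and 70.3 and 68.2 after 6 h. All libraries from 1 h on were above both 0 h libraries, and the change was largest at 1 h (0.60 ± 0.11, SE, adjusted p = 0.00138) and smaller at 6 h (0.28 ± 0.11, SE, adjusted p = 0.0341). The 6 h call was lost without 0 h replicate A or either 6 h library. Gspt1, the GTPase eRF3 that works with it, had 26.004 and 27.2 RPKM at 0 h, 28.1 and 27.7 after 1 h, 39.1 and 41.03 after 2 h, 44.9 and 51.003 after 4 h and 35.6 and 39.9 after 6 h. Its rise began at 2 h (0.57 ± 0.11, SE, adjusted p = 0.000588), reached 0.82 at 4 h and was 0.49 ± 0.11 (SE, adjusted p = 0.000777) at 6 h, with no overlap between the libraries from 2 h on and those at 0 h. Its RPFs were 62.9 and 67.7 RPKM at 0 h, 54.4 and 39.8 after 1 h, 66.9 and 75.1 after 2 h, 96.3 and 103 after 4 h and 59.4 and 59.9 after 6 h. They passed the F-test over the 5 time points (adjusted p = 0.0377), with low values at 1 h and high ones at 4 h, while no single time was called against 0 h (4 h, 0.60 ± 0.25, SE, adjusted p = 0.083). The RPFs of Etf1 were not called, with 93.3 and 67.2 RPKM at 6 h, against 98.6 and 84.7 RPKM at 0 h.

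Among the elongation genes, Eif5a, which helps ribosomes through stalling sequences, had the highest RPF level of all factors. In RNA it had 399 and 284 RPKM at 0 h, 345 and 254 after 1 h, 343 and 287 after 2 h, 285 and 269 after 4 h and 266 and 221 after 6 h, and its RPFs were 582 and 494 RPKM at 6 h, against 783 and 868 RPKM at 0 h. The 6 h libraries were below the 0 h ones in both assays, with a change of -0.47 ± 0.17 (SE, adjusted p = 0.021) in RNA and -0.62 ± 0.16 (SE, adjusted p = 0.00975) in RPFs, and neither was called after centring. Without 0 h replicate A or 6 h replicate B the RNA call was lost, and without 0 h or 6 h replicate B the RPF call. Eef1e1, a scaffold protein of the multi-tRNA synthetase complex, rose at 2 h (0.38, called in 7 of the 10 fits that left out a library) and fell at 6 h (-0.997 ± 0.13, SE, adjusted p = 4e-06), under both scalings. Its RNA was 28.6 and 30.8 RPKM at 0 h, 32.6 and 28.7 after 1 h, 38.7 and 39.1 after 2 h, 27.6 and 37.3 after 4 h and 14.6 and 14.1 after 6 h, with both 6 h libraries below all others. Its RPFs were 17.5 and 29.99 RPKM at 6 h, against 65.7 and 48.8 RPKM at 0 h, a change of -1.27 ± 0.35 (SE, adjusted p = 0.0135) that was lost after centring and without 0 h or 6 h replicate A.

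At 6 h, 37 factors were tested in both assays. 10 were called in RNA and RPFs, all of them lower in both (Eif2ak3, Eif3a, Eif3g, Eif3l, Eif4e, Eif4a1, Eif4h, Eif4a3, Eef1e1 and Eif5a), 19 in RNA alone, 2 in RPFs alone (Eif1 and Eif4e2) and 6 in neither. Of the 4621 genes tested in both assays, 47.8% were called in both (33.7% lower in both), 33.1% in RNA alone, 2.49% in RPFs alone and 16.6% in neither. For the factors the shares were 27.0%, all of it lower, 51.4%, 5.41% and 16.2%. The difference between the assays was not tested here, and the replicates of RPFs are further apart, so a call in RNA alone does not show that the RPFs did otherwise.

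**Figure D5:**
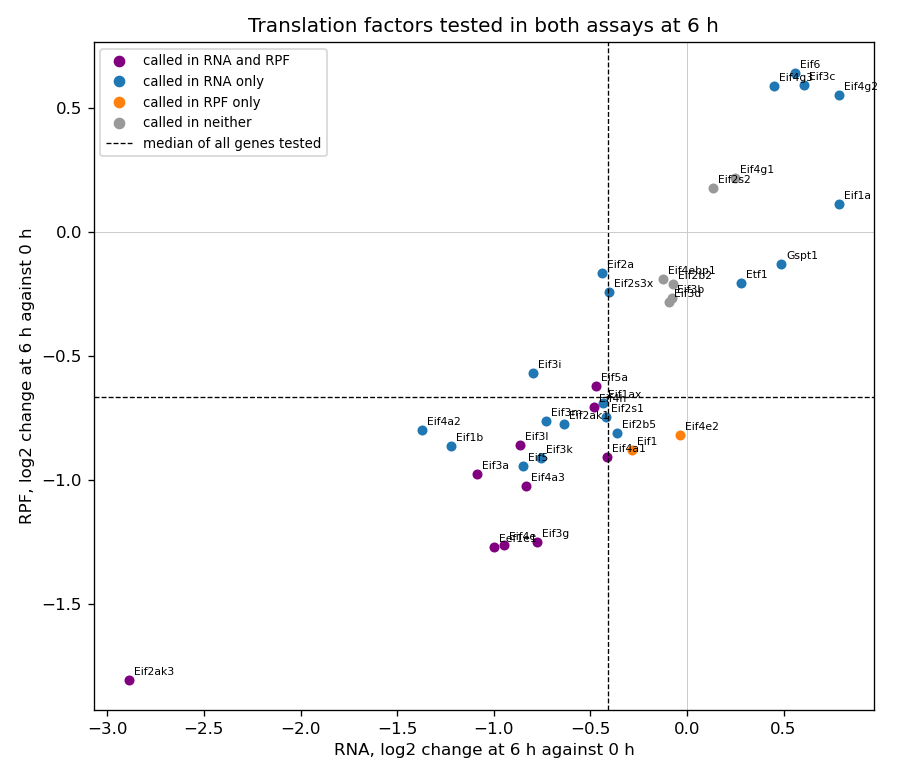
Log2 change at 6 h against 0 h in RNA (horizontal) and RPFs (vertical) for the 37 factors tested in both assays, coloured by call, with dashed lines at the medians of all genes tested (-0.41 in RNA and -0.66 in RPFs). Eif2ak3 stands apart at the lower left, and Eif6, Eif4g3, Eif3c and Eif4g2 lie at the upper right.

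TE was tested between adjacent time points and over all 5, for 37 factors of 4621 genes. No gene at all was called by limma at any interval (0% of the genes tested), and a single model over both assays called none of the factors. At an unadjusted p under 0.05 there were 2 factors between 0 and 1 h, 1 between 1 and 2 h, 0 between 2 and 4 h, 1 between 4 and 6 h and 2 in the F-test. Over all genes there were 305, 417, 190, 144 and 367. In the same order these were 5.4%, 2.7%, 0%, 2.7% and 5.4% of the factors, against 6.6%, 9.0%, 4.1%, 3.1% and 7.9% of all genes. The share of the factors was thus below that of all genes each time. At 0 h the factors had a median TE of 1.44, against 1.69 for all genes, with Eif4g2 lowest at 0.513 and Eif1 highest at 5.24. At 6 h the medians were 1.46 and 1.43. Eif1 was the highest at every time, and Eif4g2 the lowest at every time but 1 h, when Eif5 was, at 0.438. Eif1 is among the factors with near-identical copies, so its TE is less certain, and its 0 h values were 4.22 and 6.26.

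The factors with the smallest p in the TE F-test were both cap-binding proteins. Eif4e had a TE of 1.93 and 1.88 at 0 h, 0.992 and 0.516 after 1 h, 1.12 and 1.48 after 2 h, 1.11 and 1.43 after 4 h and 1.64 and 1.43 after 6 h. It was lower in both 1 h cultures than in both 0 h cultures, with a log2 change of -1.40 ± 0.35 (SE, adjusted p = 0.689). The value was -1.86 when 1 h replicate A was left out, against -0.94 when it was 1 h replicate B. Each of these fits leaves 1 culture at 1 h and takes its spread from the other times, so its calls are not given here. Eif4e2 had 1.14 and 0.914 at 0 h, 1.34 and 1.78 after 1 h, 1.29 and 1.49 after 2 h, 1.07 and 1.07 after 4 h and 0.667 and 0.516 after 6 h, with both 6 h cultures below both 4 h cultures and a change of -0.85 ± 0.29 (SE, adjusted p = 1.00) at 6 h against 4 h. Over the 5 time points limma's F-test gave Eif4e2 an adjusted p of 0.562 and Eif4e one of 0.569. Gspt1 had 2.42 and 2.49 at 0 h, 1.94 and 1.44 after 1 h, 1.71 and 1.83 after 2 h, 2.14 and 2.01 after 4 h and 1.67 and 1.502 after 6 h and a change of -0.55 ± 0.23 (SE, adjusted p = 0.689) at 1 h. Eif2a had 1.63 and 1.15 at 0 h, 1.63 and 0.214 after 1 h, 1.01 and 1.09 after 2 h, 2.48 and 2.48 after 4 h and 1.97 and 1.42 after 6 h, and its low value in 1 h replicate B is the one that rests on 13 reads. Its change at 4 h against 2 h was 1.21 ± 0.71 (SE, adjusted p = 0.997).

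The table of Zfp36 peaks holds 280 genes, and 2 of the 42 factors are among them. The table of levels holds 6397 genes. How many of those have a peak was not counted, so 2 factors cannot be read as few or many. Zfp36 is an RNA-binding protein that prefers AU-rich stretches, and both peaks are printed because they are the only peaks of the factors in this table. The peak of Eefsec, which carries selenocysteine to the ribosome, lies at chr6:88325551-88325600 on the minus strand of mm10, in an intron, 27315 bases from the nearest exon, with a deposited fold over input of 22.3. That of Eif4enif1, which binds Eif4e and takes mRNAs to P-bodies, lies at chr11:3220901-3220950 on the plus strand, in an intron, 143 bases from the nearest exon, with a fold of 18.8. The strand given is that of the gene. Distances are to exons of the 1 mRNA that each peak was assigned to, and Eif4enif1 has 4 RefSeq mRNAs. The median fold of the table is 14.97. Neither sequence holds TATTTAT or ATTTA, so none of it is in capitals.
Eefsec: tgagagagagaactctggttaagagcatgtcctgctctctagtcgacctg
Eif4enif1: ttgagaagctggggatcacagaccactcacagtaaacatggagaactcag
Both genes were under the minimum for a test. Eefsec had 7.65 and 6.86 RPKM at 0 h, 6.36 and 6.13 after 1 h, 5.71 and 5.12 after 2 h, 3.94 and 5.39 after 4 h and 3.04 and 2.63 after 6 h in RNA and 5.20 and 3.79 RPKM at 6 h, against 20.9 and 14.8 RPKM at 0 h in RPFs. Eif4enif1 had 14.3 and 13.1 RPKM at 0 h, 12.4 and 10.8 after 1 h, 8.16 and 6.79 after 2 h, 5.56 and 7.80 after 4 h and 5.96 and 7.001 after 6 h in RNA and 1.24 and 4.24 RPKM at 6 h, against 21.9 and 6.44 RPKM at 0 h in RPFs. In RNA the libraries of both genes at 4 and 6 h were below those at 0 h.

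The genes set aside and the partners of the factors were counted in the same way. Of the 10 genes set aside, 1 rose and 9 fell in RNA at 6 h, with a median log2 change of -0.76, and 3 rose and 1 fell in RPFs, with a median of -0.32. Over all genes 26.1% rose and 54.9% fell in RNA, and 12.8% rose and 36% fell in RPFs, with medians of -0.41 and -0.66. The list of partners and regulators of the factors has 32 genes in the table. In RNA 5 of the 23 tested rose and 15 fell at 6 h (median -0.64), and in RPFs 4 of the 27 tested rose and 9 fell (median -0.81), to be read beside the same shares over all genes. The ends of this list in RNA, chosen after the values were seen, were Mknk2, a kinase of Eif4e, with 2.996 and 3.16 RPKM at 6 h against 44.2 and 35.8 RPKM at 0 h, and Ppp1r15b, a subunit of the phosphatase that reverses the phosphorylation of eIF2, with 112 and 122 RPKM at 6 h against 23.8 and 25.0 RPKM at 0 h. Their log2 changes were -3.32 ± 0.12 (SE, adjusted p = 6.37e-13) and 2.22 ± 0.11 (SE, adjusted p = 1.9e-11). In both genes the 6 h and 0 h libraries did not overlap.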

How the data were processed

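RNA-seq and Ribo-seq of LPS-treated BMDMs were analysed from the table of RPKM values that the authors deposited. Per the study's methods, the authors trimmed reads with FASTX, removed rRNA, tRNA and mitochondrial reads with Bowtie, aligned the remaining RNA-seq reads to mm10 with TopHat and RefSeq annotation, counted reads of both assays with HTSeq at a minimum mapping quality of 10 and gave RPKM per library. For Zfp36, CLIP-seq reads were aligned with STAR and Piranha called peaks in 50-nt bins with a p-value threshold of 0.01. The deposited peak table gives a fold over input and a p-value per peak. A deposited table of genes that the authors selected for a change in TE, with their clusters and the same RPKM values, was not used.

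From the RPKM values, log2(RPKM + 1) was fitted with limma 3.58.1 (R 4.3.3), with time as a factor of 5 levels and a trended prior, for genes with a mean of at least 10 RPKM. TE was the difference of the RPF and RNA values of a culture, tested between adjacent times. P-values were adjusted by Benjamini-Hochberg over all genes of a comparison. The fits were tested first on simulated data with the same spread at every time point. The spread of the RPFs differed between time points, so that test does not show how the RPF and TE fits perform on these data. Sequences came from RefSeq tables and mm10, motif counts from Python 3.11.15, near-identical copies from blastn 2.17.0 at 95% identity or more. Alternatives were pseudocounts of 0.1 and 5, a minimum of 10 RPKM in every library, no minimum, median centring, the replicate letter as a block, library weights, leaving out each library, and a single TE model over both assays. Leaving out 1 h replicate B and 6 h replicate A together was added after seeing the data.

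Values in every library are given for the 5 largest rises and falls at 6 h among called factors without overlap of 6 h and 0 h libraries, the 3 largest called rises and falls at 1 and 2 h, the factor with the highest mean RNA in each role, the 4 smallest p in the TE F-test, the factors with a Zfp36 peak and 5 paralog pairs. Other factors named were chosen after their values were seen. The factors and gene lists were chosen with earlier results of these data known.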

Additional observations from a re-analysis of the deposited data

How the results depend on the processing

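RNA counts at 2, 4 and 6 h and in the F-test stayed within 1.5 times under every alternative that kept all libraries. With a minimum of 10 RPKM in every library, 1 factor was higher in RNA at 1 h, 1 was lower in RPFs at 4 h and 1 higher in RPFs at 6 h. Median centring gave 5 higher and 1 lower in RPFs at 4 h, 4 higher and 2 lower at 6 h, and 7 in the RPF F-test, since it removes part of the general shift. Library weights gave 6 higher and 8 lower at 4 h and 1 higher at 6 h in RPFs, and a pseudocount of 5 gave 1 higher at 6 h; the cause was not tested. Leaving out 1 library at a time, the ranges were 1 to 3 higher and 1 to 6 lower in RNA at 1 h, 6 to 10 lower in RNA at 2 h, 0 to 4 lower in RPFs at 1 h, 0 to 1 higher at 2 h, 0 to 4 higher and 0 to 4 lower at 4 h, 0 to 3 higher and 4 to 17 lower at 6 h, 2 to 19 in the RPF F-test, and for TE 0 to 2 at 1 h against 0 h, 0 to 2 at 2 h against 1 h and 0 to 1 in the F-test. Without 1 h replicate B and 6 h replicate A together, a choice made after seeing the data, 1 factor was higher and 1 lower in RNA at 1 h, and in RPFs 2 were higher at 2 h, 4 higher and 5 lower at 4 h and 1 higher at 6 h. Median centring turned the sign of 5 of 37 RNA values and 8 of 38 RPF values at 6 h, 4, 3 and 4 RNA values and 12, 8 and 13 RPF values at 1, 2 and 4 h, and 0 of these was called under either scaling. Of the factors given in every library, 3 RNA values at 6 h that were not called turned sign under some alternative: Eif4ebp1 became 0.10 after centring and ran from -0.32 to 0.0751 when 1 library was left out, Eif1 ran from -0.62 to 0.0504, and Eif4e2 became 0.18 after centring and ran from -0.15 to 0.0745 (0.01 without 1 h replicate B and 6 h replicate A). Of the other values of single factors, 722 stayed on their side of the threshold, 54 lost their call and 8 gained one. Deviations of same-letter libraries correlated at 0.09 to 0.54 in RNA (10 pairs of time points), -0.02 to 0.02 in RPFs and 0.02 to 0.08 in TE, so in RNA most pairs deviated together while the lowest was under the 0.1 asked of every pair, and the fits were left unblocked; with the letter as a replicate block, 8 factors were higher and 22 lower in RNA at 6 h, 13 lower in RPFs at 6 h and 0 called in TE. A fit without 1 library rests on 1 culture at that time and takes its spread from the other times. The shallow Ribo-seq libraries limit the RPF and TE results.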
